A study of Mus musculus with 4 samples.

Results

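The 9 genes described here are markers of endothelial cells, the cells that line blood vessels: Kdr, Flt1, Tek, Tie1, Cdh5, Pecam1, Eng, Emcn and Cd34. They were chosen by name and found by matching the Ensembl identifiers of the deposited table to mouse gene symbols. All 9 were among the 28765 genes of the table, and all 9 passed the filter of a mean level of 1 FPKM or more (reads scaled to gene length and library total) that left 12940 genes for comparison. RNA-seq had been done on 4 libraries of CD-1 mouse embryos collected at E9.5, each a group of its own: brain with a neural tube defect (NTD brain), control brain, spine with a neural tube defect (NTD spine) and control spine. The mice were supplied at 7 to 8 weeks of age. The labels describe a low-folate feed for over 8 weeks and an intraperitoneal dose of 1.5 mg/kg MTX on E7.5 as the way the defects were produced. The same protocol text stands beside the control samples, and it does not say whether control mothers had the low-folate feed or an injection. Embryos of the NTD groups were collected because they showed a defect, and no label says how many embryos went into a library. With 1 library per group no difference between groups has a replicate check.

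In the embryo, endothelial cells form vessels in response to VEGF ligands, which act through the tyrosine kinase receptors encoded by Kdr and Flt1. A later system of angiopoietin ligands and the receptors Tek and Tie1 serves vessel remodelling and stability. At this stage vessels grow into the neural tube from a plexus around it, while the heart, the yolk sac and the body wall carry endothelium of their own.

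The libraries held between 16272101 and 16911677 reads behind the FPKM values, and between 23389 and 24034 genes above 0. Reads per gene were recovered from the FPKM steps, and 95% counting intervals were taken from them. These intervals cover counting error only, not differences between embryos. Dissection and library cannot be told apart from tissue and condition in this design. Because each library is bulk tissue, fewer endothelial cells and less RNA per cell cannot be told apart in any level given here.

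Start-site sequences are given for 4 of the genes because they hold the extremes of what follows: Tek and Eng, the highest and the lowest of the 9 in both NTD comparisons, and Flt1 and Emcn, the members with the lowest levels. Each line is the 250 bases before the annotated start, from RefSeq on GRCm38.p6, 5′ to 3′ on the gene's strand. Capitals mark AGGAAG or its reverse complement CTTCCT, a sequence that holds the GGAA core bound by ETS factors, a family with a broad role in endothelial transcription. The Tek window is chr4:94739039-94739288 (+), the Flt1 window chr5:147726012-147726261 (−), the Eng window chr2:32646345-32646594 (+) and the Emcn window chr3:137340828-137341077 (+).
Tek: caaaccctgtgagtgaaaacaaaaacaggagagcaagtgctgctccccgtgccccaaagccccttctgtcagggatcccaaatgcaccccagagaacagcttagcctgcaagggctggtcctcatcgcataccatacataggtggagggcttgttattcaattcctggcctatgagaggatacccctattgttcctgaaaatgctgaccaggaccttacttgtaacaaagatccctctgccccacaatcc
Flt1: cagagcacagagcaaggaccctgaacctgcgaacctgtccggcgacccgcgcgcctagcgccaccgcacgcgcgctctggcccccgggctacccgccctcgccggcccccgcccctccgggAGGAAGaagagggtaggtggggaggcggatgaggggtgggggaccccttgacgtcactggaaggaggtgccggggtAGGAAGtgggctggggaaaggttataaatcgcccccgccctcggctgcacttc
Eng: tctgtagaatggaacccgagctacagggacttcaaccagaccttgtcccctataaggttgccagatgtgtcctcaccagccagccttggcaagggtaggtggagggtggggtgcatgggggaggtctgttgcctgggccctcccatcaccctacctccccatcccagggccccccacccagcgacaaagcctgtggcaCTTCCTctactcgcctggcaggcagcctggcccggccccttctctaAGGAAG
Emcn: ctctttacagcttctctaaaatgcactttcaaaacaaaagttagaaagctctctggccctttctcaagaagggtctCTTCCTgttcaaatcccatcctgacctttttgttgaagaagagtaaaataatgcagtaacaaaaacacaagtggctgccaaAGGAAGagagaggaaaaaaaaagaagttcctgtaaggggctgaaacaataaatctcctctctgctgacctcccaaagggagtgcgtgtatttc
RefSeq windows were matched for 7 of the 9 genes, all but Cdh5 and Pecam1. The letters AGGAAG, on either strand, stood in 5 of the 7 windows (Cd34, Eng, Emcn, Tie1 and Flt1) and in 29.5% of the 32851 mouse windows of the same length. Kdr and Tek had none. GATAAG, on either strand, stood in 0 of the 7 windows and in 6.55% of all windows. TATAAA, on either strand, stood in 1 of the 7, that of Flt1, and in 12.4% of all windows. A letter match is not a binding site, and a window without it says nothing of the factor.

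All 9 genes were read in every library, with between 366 reads (Emcn in control brain) and 2030 reads (Kdr in NTD spine). Kdr encodes the main signalling receptor for VEGF and lies on chromosome 5 (75932827 to 75978458, minus strand, ENSMUSG00000062960). Kdr stood at 12.2 FPKM in NTD brain, 11.3 FPKM in control brain, 13.5 FPKM in NTD spine and 12.4 FPKM in control spine. It was the second highest member in every library, and the NTD library was the higher of the pair in both tissues. Flt1 encodes a VEGF receptor that also exists as a soluble form that binds the ligand, and lies on chromosome 5 (147561604 to 147726011, minus strand, ENSMUSG00000029648). Flt1 stood at 1.98 FPKM in NTD brain, 2.15 FPKM in control brain, 2.53 FPKM in NTD spine and 2.45 FPKM in control spine. It was the lowest of the 9 everywhere, and both spine libraries were above both brain libraries.

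Tek encodes the angiopoietin receptor and lies on chromosome 4 (94739289 to 94874976, plus strand, ENSMUSG00000006386). Tek stood at 6.25 FPKM in NTD brain, 5.15 FPKM in control brain, 9.90 FPKM in NTD spine and 8.63 FPKM in control spine. No other member had so wide a gap between the tissues as a ratio, and both NTD libraries were above their controls. Tie1 encodes a related receptor that pairs with Tek and modulates its signalling, and lies on chromosome 4 (118471191 to 118490061, minus strand, ENSMUSG00000033191). Tie1 stood at 7.22 FPKM in NTD brain, 7.77 FPKM in control brain, 10.3 FPKM in NTD spine and 9.62 FPKM in control spine. It was higher in both spine libraries than in both brain libraries.

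Cdh5 encodes VE-cadherin, the cadherin of endothelial junctions, and lies on chromosome 8 (104101625 to 104144511, plus strand, ENSMUSG00000031871). Cdh5 stood at 14.6 FPKM in NTD brain, 17.1 FPKM in control brain, 20.96 FPKM in NTD spine and 19.7 FPKM in control spine. It was the highest member in every library, lowest of all in NTD brain. Pecam1 encodes an adhesion molecule of endothelial contacts that is also carried by platelets and white blood cells, and lies on chromosome 11 (106654217 to 106750628, minus strand, ENSMUSG00000020717). Pecam1 stood at 5.44 FPKM in NTD brain, 5.49 FPKM in control brain, 6.88 FPKM in NTD spine and 7.27 FPKM in control spine. The tissues were apart and the conditions close together.

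Eng encodes endoglin, a co-receptor for ligands of the TGF-beta and BMP family, and lies on chromosome 2 (32646595 to 32682669, plus strand, ENSMUSG00000026814). Eng stood at 7.75 FPKM in NTD brain, 9.82 FPKM in control brain, 9.42 FPKM in NTD spine and 11.7 FPKM in control spine. Both NTD libraries were below both control libraries, a pattern that no other member had. Emcn encodes endomucin, a sialomucin of the endothelial surface, and lies on chromosome 3 (137341067 to 137432185, plus strand, ENSMUSG00000054690). Emcn stood at 4.62 FPKM in NTD brain, 4.001 FPKM in control brain, 4.73 FPKM in NTD spine and 4.31 FPKM in control spine. It was the eighth of the 9 in every library. Cd34 encodes a sialomucin shared by endothelial and blood progenitor cells, and lies on chromosome 1 (194938819 to 194961279, plus strand, ENSMUSG00000016494). Cd34 stood at 9.60 FPKM in NTD brain, 9.33 FPKM in control brain, 7.47 FPKM in NTD spine and 7.81 FPKM in control spine. It was the one member with both brain libraries above both spine libraries.

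**Figure D1:**
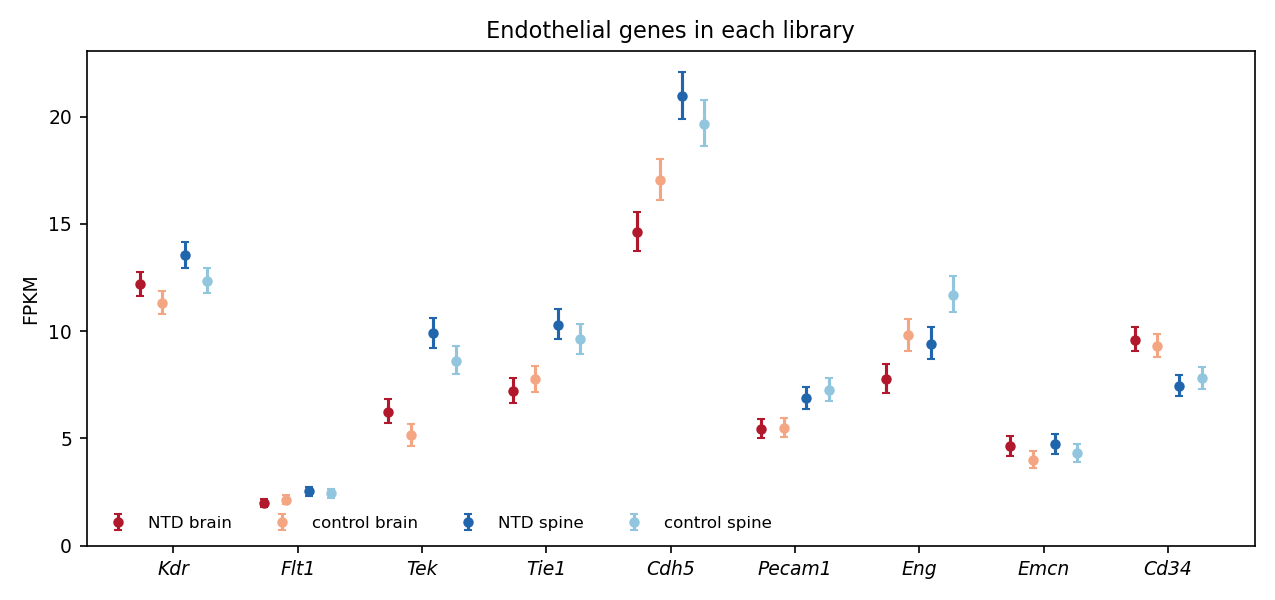
FPKM of the 9 genes, plotted by gene with 1 point per library (NTD brain, control brain, NTD spine, control spine) and bars for the 95% counting interval. Cdh5 is highest and Flt1 lowest in every library, Eng is lower in each NTD library than in its control, and Cd34 alone is higher in both brain libraries.

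The order of levels, which FPKM allows because it is per length, was stable at its ends. Cdh5 was followed by Kdr at the top, and Emcn was followed by Flt1 at the bottom, in all 4 libraries. In NTD brain the order between them was Cd34, Eng, Tie1, Tek and Pecam1. In control brain it was Eng, Cd34, Tie1, Pecam1 and Tek. In NTD spine it was Tie1, Tek, Eng, Cd34 and Pecam1, and in control spine it was Eng, Tie1, Tek, Cd34 and Pecam1. The counting intervals overlapped between neighbours for Eng and Tie1, Tie1 and Tek, Tek and Pecam1, and Pecam1 and Emcn in NTD brain. In control brain they overlapped for Eng and Cd34, and for Pecam1 and Tek. In NTD spine they overlapped for Tie1 and Tek, Tek and Eng, and Cd34 and Pecam1. In control spine they overlapped for Kdr and Eng, Tie1 and Tek, Tek and Cd34, and Cd34 and Pecam1.

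In the brain, the endothelial genes showed no common shift between NTD and control. Of the 9 genes, 4 were higher in NTD brain and 5 were lower, and their median log2 ratio of FPKM + 1 was -0.01, beside -0.03 over all genes compared. A rescaling of the libraries by the median ratio over genes turned this split to 5 higher and 4 lower. An adjustment for GC content and length turned it to 7 higher and 2 lower (Cdh5 and Eng), with Flt1 at 0.01, Tie1 at 0.03 and Pecam1 at 0.02 on the log2 scale. None of the 9 reached a 2-fold difference, which 1.58% of the genes compared did in either direction, and none reached 1.5-fold, which 4.58% did. All 9 are protein-coding, and 0.393% of the 11199 protein-coding genes compared reached 2-fold. The reads of the 9 genes added up to 6979 in NTD brain and 7253 in control brain, and per library total their sum was 0.988 times the control sum, with a counting interval of 0.956 to 1.02.

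Single members differed in the brain, in both directions. Tek was 1.21 times as high in NTD brain as in control brain, with a counting interval of 1.06 to 1.39. Emcn was 1.16 times as high, at the edge of its interval of 1.002 to 1.33, and Kdr 1.08 times as high (1.01 to 1.15). Eng was 0.790 times the control level (0.703 to 0.887) and Cdh5 0.858 times (0.789 to 0.934). Thus the intervals of 3 members lay above 1, as did those of 16.1% of the 12721 genes with recovered reads, and the intervals of 2 members lay below 1, as did those of 25.7%. Flt1 at 0.924 times, Tie1 at 0.930 times, Pecam1 at 0.991 times and Cd34 at 1.03 times the control level had intervals that included 1.

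In the spine, 6 of the 9 genes were higher in NTD spine and 3 were lower, with a median log2 ratio of 0.09, beside -0.04 over all genes. None reached a 2-fold difference, which 1.33% of the genes compared and 0.375% of the protein-coding ones did, and none reached 1.5-fold, which 4.38% of the genes compared did. The reads of the 9 genes added up to 8351 in NTD spine and 7945 in control spine, and per library total the sum was 1.03 times the control sum (0.999 to 1.06). Tek was 1.15 times as high in NTD spine as in control spine (1.03 to 1.27) and Kdr 1.10 times as high (1.03 to 1.17). Eng was 0.805 times the control level (0.723 to 0.895). The intervals of 2 members thus lay above 1, beside 17.2% of genes with recovered reads, and that of 1 member lay below 1, beside 26.6%. The intervals of the other 6 included 1, with Cdh5 at 1.07 times, Tie1 at 1.07 times, Emcn at 1.10 times, Flt1 at 1.03 times, Cd34 at 0.956 times and Pecam1 at 0.947 times the control level.

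**Figure D2:**
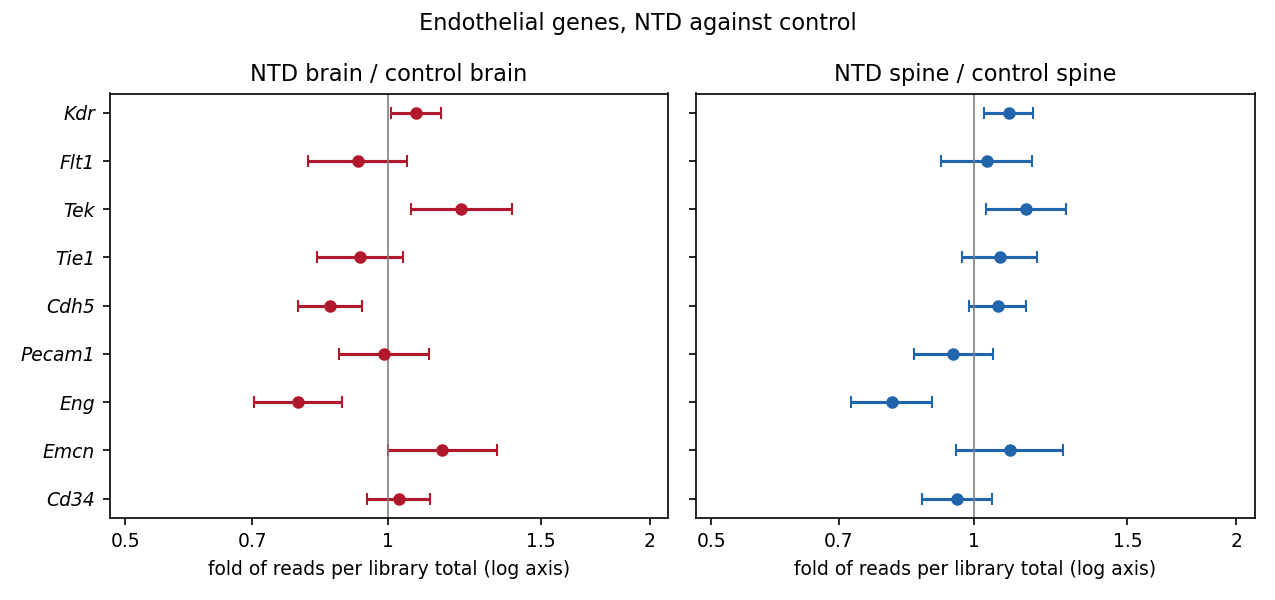
Ratio of FPKM in the NTD library to that in its control, on a log axis, for each of the 9 genes in brain and in spine, with 95% counting intervals. Eng is the lowest in both tissues (0.790 in brain and 0.805 in spine) and Tek the highest (1.21 and 1.15), while Cdh5 is below 1 in brain and above 1 in spine.

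Tek was the highest and Eng the lowest of the 9 in both tissues. With an adjustment for GC content and length Eng was still the lowest in both and Tek the highest in brain, while in spine Cdh5 at 0.19 and Tie1 at 0.18 lay above Tek at 0.15 on the log2 scale. The members' log2 ratios in brain and in spine had a Spearman correlation of 0.68 and a Pearson correlation of 0.67 over the 9 genes, which are not independent of each other. Cdh5 was the member whose ratio in the brain differed from that in the spine beyond counting error: its brain ratio was 0.806 times its spine ratio (0.721 to 0.901).

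The 4 libraries allowed 1 fit with tissue as a block, which averages the NTD difference over brain and spine and does not require both to have the same sign. In limma, with Benjamini-Hochberg adjusted p-values over 12940 genes, 1 of the 9 members was called between NTD and control, beside 923 genes or 7.13% of all. That member was Eng, which fell by 0.30 on the log2 scale of FPKM + 1 (SE 0.0698, adjusted p = 0.0381 in limma). Over the alternative settings its adjusted p ran between 0.0321 and 0.396 in limma, and the call was lost without the filter on low values, with the spread modelled on mean FPKM and with an adjustment for GC content and length. At an unadjusted p under 0.05 limma counted 2 of the 9 members, Eng and Tek, beside 25.5% of all genes. Tek followed with a log2 difference of 0.21 (SE 0.0721, adjusted p = 0.112 in limma), and Kdr with 0.11 (SE 0.0587, adjusted p = 0.268 in limma). Emcn differed by 0.14 (SE 0.0800), Cdh5 by -0.06, Pecam1 by -0.04, Flt1 by -0.02, Cd34 by -0.01 and Tie1 by less than 0.01 in size, none of which passed. The fit has 1 residual degree of freedom per gene, so its spread is borrowed from other genes.

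Base composition moved with these ratios. Over 12927 genes compared, the log2 ratio of NTD to control had a Spearman correlation with the GC content of the transcript of -0.34 in brain and -0.36 in spine. When the genes were cut into 10 equal bins by GC, the median log2 ratio was 0.07 in brain and 0.06 in spine in the lowest bin, and in the highest bin it was -0.16 in brain and -0.18 in spine. Over the 9 members the correlation was -0.92 in brain and -0.47 in spine. Eng and Tie1 were the members highest in GC, at 57.4% and 57.6%, Emcn was the lowest at 41.5%, and Tek had 47.1%. After a correction for the median of genes of like GC content and length, the log2 ratio of Eng was -0.18 in brain and -0.15 in spine, against -0.31 and -0.29 without it, and that of Tek was 0.21 in brain and 0.15 in spine, against 0.24 and 0.18. With that correction no member was called in limma, and Eng had a difference of -0.17 with an adjusted p of 0.195. The part of base composition in these ratios was not tested further.

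**Figure D3:**
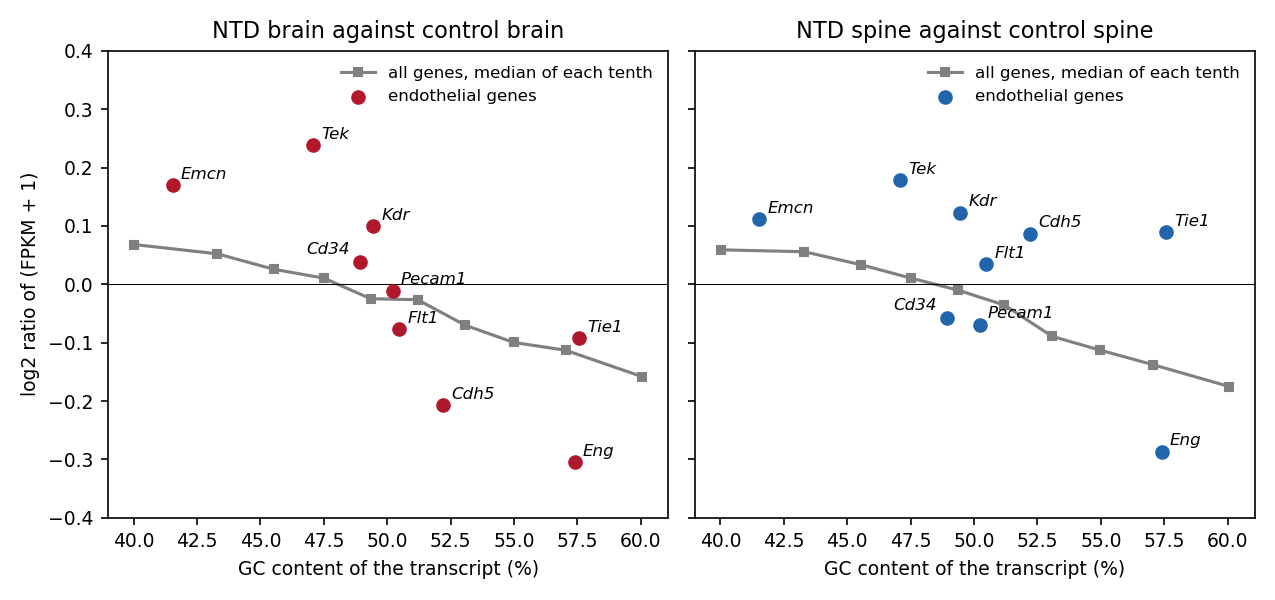
Log2 ratio of FPKM + 1 between NTD and control against GC content of the transcript in percent, in brain and in spine, with the 9 genes as labelled points over the median of each of 10 GC bins of all genes compared. The medians run between 0.07 in the lowest and -0.16 in the highest bin in brain, and between 0.06 and -0.18 in spine, and Eng lies at the GC-rich, low end.

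Most of the endothelial genes were lower in brain than in spine. In control embryos 8 of the 9 were lower in brain than in spine, with a median log2 ratio of -0.20, beside 0.01 over all genes. In NTD embryos the same 8 were lower, with a median of -0.25, beside 0.01 over all genes. The recovered reads of the 9, per library total, were 0.878 times the spine sum in control brain (0.851 to 0.907) and 0.843 times the spine sum in NTD brain (0.816 to 0.870). Intervals below 1 were found for 7 of the 9 members in control embryos, beside 19.2% of genes, and for 7 of the 9 in NTD embryos, beside 22.3%. The interval of 1 member, Cd34, lay above 1 in each, beside 20.0% of genes in control embryos and 21.2% in NTD embryos. No member reached 2-fold, which 3.36% of genes did in control embryos and 3.15% in NTD embryos (2.80% and 2.49% of protein-coding genes).

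Tek was the member with the widest difference between tissues. Its level in control brain was 0.596 times that in control spine (0.526 to 0.675), and its level in NTD brain 0.631 times that in NTD spine (0.562 to 0.708). Tek alone passed 1.5-fold in either comparison, which 8.18% of genes did in control embryos and 8.29% in NTD embryos. Pecam1 was 0.755 times the spine level in control brain (0.676 to 0.843) and 0.790 times in NTD brain. Tie1 was 0.807 times in control brain and 0.701 times in NTD brain, and Cdh5 was 0.866 times and 0.698 times. Kdr, at 0.917 times in control brain and 0.901 times in NTD brain, was closer to equal, as was Emcn at 0.929 times and 0.977 times, with intervals that included 1. Cd34 went the other way, at 1.19 times the spine level in control brain (1.09 to 1.30) and 1.29 times in NTD brain (1.18 to 1.40).

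**Figure D4:**
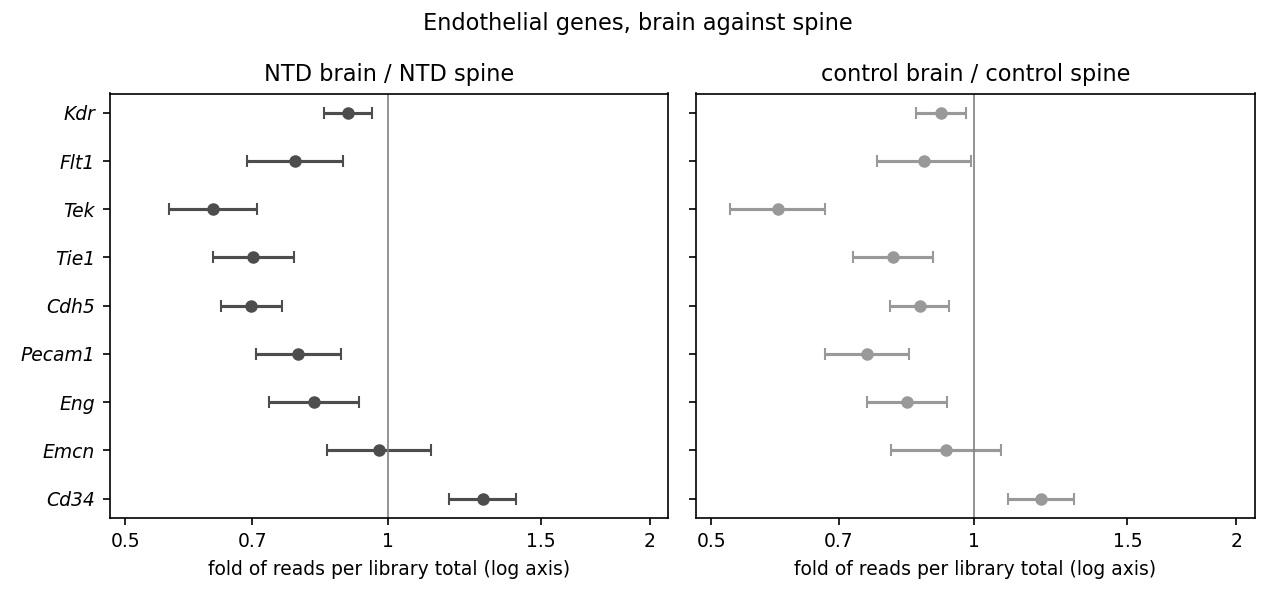
Ratio of FPKM in brain to that in spine, on a log axis, for each of the 9 genes in NTD and in control embryos, with 95% counting intervals. Tek is lowest in both (0.631 in NTD and 0.596 in control), and Cd34 is the one gene above 1 (1.29 in NTD and 1.19 in control).

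In limma with condition as a block, 5 of the 9 members were called between brain and spine, beside 1716 genes or 13.3% of all. Tek fell by 0.62 on the log2 scale of FPKM + 1 in brain (SE 0.0721, adjusted p = 0.000354 in limma), Tie1 by 0.37 (SE 0.0745, adjusted p = 0.00934), Cdh5 by 0.34 (SE 0.0783, adjusted p = 0.0175) and Pecam1 by 0.32 (SE 0.0704, adjusted p = 0.0141). Cd34 rose by 0.28 (SE 0.0653, adjusted p = 0.0210 in limma). Eng at -0.24 (adjusted p = 0.0515 in limma), Flt1 at -0.19, Kdr at -0.13 and Emcn at -0.06 did not pass. Eng passed in limma at a pseudocount of 5 (adjusted p = 0.0491) and with libraries rescaled by the median ratio (adjusted p = 0.0352), and its adjusted p ran between 0.0352 and 0.272 over the alternative settings. Of the members called, the value of Cdh5 rested most on single libraries: it was -0.49 without either control library and -0.20 without either NTD library. Without the filter on low values limma called none of the 9. With the spread modelled on mean FPKM, limma called Tek alone of the 9 (adjusted p = 0.0183; over the alternative settings between 8.36e-06 and 0.177 for Tek).

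The tissues differed in their other cell types as well, and these levels stand beside the endothelial ones. The 10 neural tube genes measured added up to 260.1 FPKM in NTD brain, 343.6 FPKM in control brain, 140.4 FPKM in NTD spine and 196.1 FPKM in control spine, and all 10 were higher in brain than in spine in both conditions and in limma. The 11 endocardium and heart muscle genes measured added up to 202.3 FPKM in NTD brain, 51.3 FPKM in control brain, 484.2 FPKM in NTD spine and 709.5 FPKM in control spine. Of these 11, 9 were called lower in brain in limma. The calls between brain and spine given here stand beside 13.3% of all genes. Actc1, a cardiac actin, stood at 90.0 FPKM in NTD brain, 20.8 FPKM in control brain, 211 FPKM in NTD spine and 307 FPKM in control spine. Heart muscle RNA was thus higher in the spine libraries, and higher in NTD brain than in control brain. Of the 5 measured endoderm and yolk sac genes all 5 were called lower in brain, with Afp, the fetal plasma protein alpha-fetoprotein, at 0.126 FPKM in NTD brain, 0 FPKM in control brain, 20.7 FPKM in NTD spine and 56.7 FPKM in control spine. That list added up to 1.35 FPKM in NTD brain and 1.14 FPKM in control brain. Its genes passed the filter through the spine libraries, so their lower place in brain was largely fixed by the filter. The heart is lined by endothelium, and its part in the members' levels was not tested.

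Between NTD and control the same marker lists moved unequally. The endoderm and yolk sac list had a median log2 ratio of -1.43 in spine and 0.07 in brain. In spine all 5 of its genes were at least 2-fold lower in NTD, beside 1.33% of all genes at least 2-fold apart in either direction. The heart list had a median log2 ratio of 1.03 in brain, with 10 of 11 genes higher in NTD, and -0.47 in spine, with 8 of 11 lower in NTD. Myh6, a myosin heavy chain of heart muscle, stood at 10.8 FPKM in NTD brain against 1.59 FPKM in control brain, and at 33.2 FPKM in NTD spine against 46.4 FPKM in control spine. Npr3, a receptor found in endocardium, stood at 2.60 FPKM in NTD brain and 2.02 FPKM in control brain, and Nfatc1, an endocardial transcription factor, at 0.845 FPKM in NTD brain and 0.926 FPKM in control brain. Both were chosen after their values were seen, as genes of endocardium in the list, and only their brain levels are given here. Nfatc1 was the 1 gene of the 11 that was not higher in NTD brain, and it was under 1 FPKM in both brain libraries. How endocardium moved as a whole was not tested. The primitive erythroid list, whose cells travel in the vessels, had a median log2 ratio of 0.04 in brain and -0.76 in spine, where 10 of 11 genes were lower in NTD. Hbb-y, an embryonic beta-like globin, was 0.996 times the control level in NTD brain and 0.505 times the control level in NTD spine. The 9 endothelial genes had a median of 1.07 times the control level in NTD spine. The neural tube list was lower in NTD for all 10 genes in both tissues, with medians of -0.47 in brain and -0.53 in spine. In limma 6 of the 10 were called between NTD and control, beside 7.13% of all genes. The same fit called 1 of the 11 heart genes, higher in NTD. It called 0 of the 11 erythroid genes and 0 of the 5 endoderm and yolk sac genes.

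Blood cells can share Cd34 and Pecam1, and were looked for with 9 genes of blood stem cells, macrophages and platelets. Of these, 3 passed the filter. Ptprc, the pan-leukocyte CD45 gene, stood at 0.0398 FPKM in NTD brain, 0.0678 FPKM in control brain, 0.00329 FPKM in NTD spine and 0.00336 FPKM in control spine, and was near 0 everywhere beside Cd34 and Pecam1. It was named after its values were seen, and the part of blood cells in the levels of Cd34 and Pecam1 was not tested. Pf4, a platelet chemokine of the megakaryocyte line, stood at 5.31 FPKM in NTD brain, 8.04 FPKM in control brain, 3.09 FPKM in NTD spine and 7.59 FPKM in control spine. It fell by 0.79 in limma (SE 0.177, adjusted p = 0.0322). Kit, a receptor of blood progenitors and of neural crest cells, stood at 6.46 FPKM in NTD brain, 6.10 FPKM in control brain, 5.76 FPKM in NTD spine and 4.72 FPKM in control spine.

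The ligands of these receptors did not move uniformly. Of 8 VEGF ligands and co-receptors measured, 5 were higher in NTD brain and 6 in NTD spine. Their median log2 ratios were 0.14 in brain and 0.16 in spine, beside -0.03 and -0.04 over all genes. Vegfa, the main ligand of Kdr, was 0.964 times the control level in NTD brain (0.898 to 1.03) and 1.09 times in NTD spine (1.01 to 1.17). Vegfc, a ligand in lymphatic and early vessel growth, was 1.13 times the control level in NTD brain (0.941 to 1.36) and 1.38 times in NTD spine (1.14 to 1.66). Vegfb, a ligand of Flt1, was 0.932 times in NTD brain (0.819 to 1.06) and 0.834 times in NTD spine (0.737 to 0.943). In limma 1 of the 8 was called between NTD and control, beside 7.13% of all genes. It was Nrp2, a VEGF and semaphorin co-receptor named after its values were seen, which rose by 0.27 (SE 0.0571, adjusted p = 0.0270 in limma). Between tissues 2 of the 8, Nrp1 and Nrp2, fell in brain in limma, beside 13.3% of all genes called.

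Of the 4 genes listed as angiopoietin ligands and phosphatase, 2 passed the filter, both of them ligands. Angpt1, the activating ligand of Tek, stood at 2.51 FPKM in NTD brain, 1.47 FPKM in control brain, 2.90 FPKM in NTD spine and 3.67 FPKM in control spine, so that it was higher in NTD than in control in brain and lower in spine. Its ratio was 1.71 in brain (1.37 to 2.15) and 0.791 in spine (0.667 to 0.937). Angpt2, the context-dependent ligand, stood at 0.527 FPKM in NTD brain, 0.561 FPKM in control brain, 1.73 FPKM in NTD spine and 1.30 FPKM in control spine. Angpt2, like Tek, was lower in both brain libraries, and it fell by 0.70 in brain in limma (SE 0.168, adjusted p = 0.0229). Unlike Tek, it was under 1 FPKM in both brain libraries and passed the filter only through its spine levels, which limits this call.

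Calls in the lists that follow stand beside 7.13% of all genes called between NTD and control and 13.3% called between brain and spine in limma. List medians between NTD and control stand beside -0.03 in brain and -0.04 in spine over all genes. Like that of Eng, calls between NTD and control hung on the settings. Over all genes their count was 923, and 0 without the filter on low values. It was 19 with the spread modelled on mean FPKM, 311 with the GC and length adjustment and 1425 with libraries rescaled by the median ratio. Of 21 other endothelial genes measured, 7 were higher in NTD brain and 14 lower, 6 were higher in NTD spine and 15 lower, and none reached 2-fold in either tissue. Of all genes compared, 56.4% were lower in NTD brain and 58.0% in NTD spine. The medians of the 21 were -0.08 in brain and -0.03 in spine. In limma 1 of the 21 was called, Egfl7, a secreted protein of endothelial cells, which fell by 0.47 (SE 0.0854, adjusted p = 0.0185). Egfl7 stood at 6.93 FPKM in NTD brain, 9.05 FPKM in control brain, 6.63 FPKM in NTD spine and 10.5 FPKM in control spine, and it had 58.5% GC. Plvap, a protein of the diaphragms of fenestrated endothelium, stood at 17.4 FPKM in NTD brain, 22.7 FPKM in control brain, 28.8 FPKM in NTD spine and 31.7 FPKM in control spine. It did not pass between NTD and control, and fell by 0.58 in brain against spine (SE 0.0760, adjusted p = 0.000725 in limma). Aplnr, the apelin receptor of venous and sprouting endothelium, was 0.824 times the control level in NTD brain (0.755 to 0.900) and 0.991 times in NTD spine. Stab1, a scavenger receptor of sinusoidal endothelium and macrophages, was 0.919 times in NTD brain and 1.15 times in NTD spine (1.05 to 1.26). Between tissues, 18 of the 21 were lower in brain in control embryos and 18 in NTD embryos, beside 48.6% and 48.7% of all genes. In limma 4 of the 21 were called, all lower in brain.

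Among 14 endothelial transcription factors measured, the medians were -0.02 in brain and 0.07 in spine, and 1 was called between NTD and control in limma. Ets1, a founding member of the ETS family, stood at 13.0 FPKM in NTD brain, 10.5 FPKM in control brain, 15.2 FPKM in NTD spine and 11.7 FPKM in control spine. Both NTD libraries were above both controls, and it rose by 0.32 (SE 0.0599, adjusted p = 0.0198 in limma). Ets1 is also expressed in neural crest and mesenchyme, and has 47.3% GC. Sox18, a factor of early endothelial and lymphatic specification, was 0.719 times the control level in NTD brain (0.591 to 0.872) and 1.003 times in NTD spine. Lmo2, a cofactor of blood and vessel development, was 1.04 times in NTD brain and 1.05 times in NTD spine, and fell by 0.39 in brain against spine (SE 0.0782, adjusted p = 0.00894 in limma). Between tissues 3 of the 14 were called in limma, all lower in brain, beside 13.3% of all genes.

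The 14 measured genes of arterial and venous identity and of the ALK1 pathway, in which endoglin acts, had medians of -0.10 in brain and -0.02 in spine between NTD and control. In limma 1 was called, Ephb4, the venous ephrin receptor, which fell by 0.36 (SE 0.0722, adjusted p = 0.0236). Ephb4 stood at 23.2 FPKM in NTD brain, 33.0 FPKM in control brain, 31.2 FPKM in NTD spine and 36.7 FPKM in control spine, and it had 58.4% GC. Its arterial ligand Efnb2, also expressed in neural tissue, was 1.09 times the control level in NTD brain and 0.987 times in NTD spine. Between tissues 8 of the 14 were called lower in brain, and 1 higher: Jag1, a Notch ligand of arteries and of neural progenitors, which rose by 0.61 (SE 0.0608, adjusted p = 0.000131 in limma). Of the 6 brain vessel and barrier genes measured none was called between NTD and control in limma, with Slc2a1, the glucose transporter of the barrier and of many embryonic cells, at 1.14 times the control level in NTD brain and 1.10 times in NTD spine. Between tissues 4 of these 6 fell in brain and 1 rose, and Adgra2, a co-receptor for Wnt signals in brain vessels, fell by 0.90 (SE 0.0652, adjusted p = 1.59e-05 in limma). Of the 6 pericyte and smooth muscle genes none was called between NTD and control, and 4 were called lower in brain. Acta2, smooth muscle actin that early heart muscle also makes, stood at 36.5 FPKM in NTD brain, 14.1 FPKM in control brain, 87.4 FPKM in NTD spine and 111 FPKM in control spine.

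**Figure D5:**
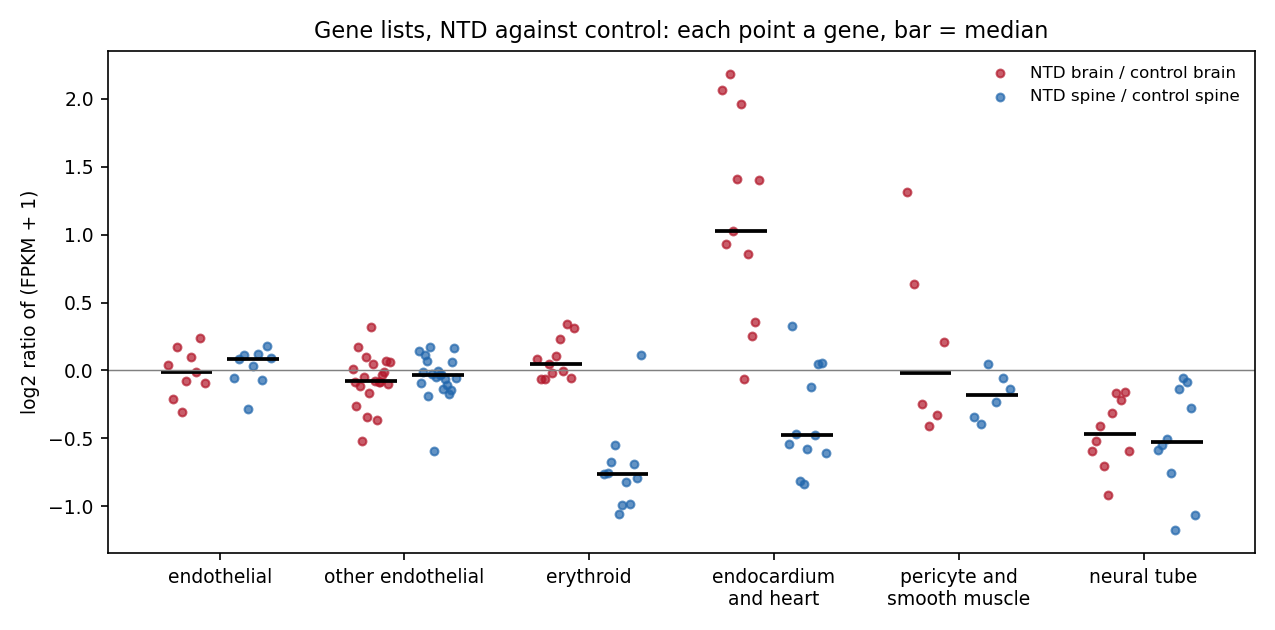
Median log2 ratio of FPKM + 1 for 6 of the 13 gene lists in NTD against control, in brain and in spine, with each list's genes as points. The lists of endothelial genes lie close to 0 (the 9 members at -0.01 in brain and 0.09 in spine), whereas heart genes are at 1.03 in brain and -0.47 in spine, erythroid genes at -0.76 in spine and neural tube genes at -0.47 in brain and -0.53 in spine.

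The median profile of the 9 genes over the 4 libraries, centred on each gene's mean, was set against 7221 other protein-coding genes whose mean reached 5 FPKM. The closest 5 by Euclidean distance were Serpinh1 (0.0254), a collagen chaperone, Cd276 (0.0270), an immune checkpoint molecule, Zfp275 (0.0301), a zinc finger gene, Dock6 (0.0325), a guanine nucleotide exchange factor, and Btg1 (0.0339), an antiproliferative gene. None of these is in the endothelial lists. Of the members, Pecam1 at 0.0793 and Flt1 at 0.0849 were the closest to the median profile and Tek at 0.429 and Cd34 at 0.548 the farthest. Of the 7221 genes, 6618 lay closer than Cd34, and 866 (11.99%) lay closer than the median member.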

How the data were processed

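RNA-seq of 4 CD-1 mouse libraries, 1 per group, was grouped by sample title, and 0 value columns stayed unmapped. The authors deposited 1 table of FPKM. HISAT2 2.0.1 was the aligner and mm10 the build, per the submitters' processing notes. Counter, annotation, strand setting and filters: not given in the sources used here.

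Of 28765 identifiers, 28698 matched GENCODE M21 (GRCm38) and 67 did not. FPKM times exon length stepped in whole reads: 28298 genes (98.6% of those matched) came out whole within 0.01 reads in all 4 libraries, which gave reads per gene, library totals and exact 95% counting intervals of ratios. Ratios were taken of FPKM, and log2 ratios with a pseudocount of 1, over the genes whose mean reached 1 FPKM. limma 3.58.1 on log2(FPKM + 1) (NTD against control with tissue as a block, and brain against spine with condition as a block) had its spread modelled on mean reads. This was set after tests on simulated data and after results with the spread modelled on mean FPKM were known. The simulated reads held counting error only and the same fold in both tissues. They cannot show how many calls are false where the NTD difference varies between tissues. Calls used a Benjamini-Hochberg adjusted p under 0.05 over all genes. GC content came from the longest protein-coding transcript. Start-site windows came from RefSeq (GRCm38.p6).

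The members and gene lists were chosen with earlier results of these data known. All 9 members were named. From each of 12 other lists up to 4 genes were named: the 2 highest in mean FPKM and the highest and lowest log2 NTD ratio among genes of at least 5 FPKM. Ptprc, Nrp1, Nrp2, Npr3 and Nfatc1 fall outside this rule. Nothing says that libraries came from separate litters. With 1 library per group, the p-values measure no spread between like libraries or between litters. They rest on how far the NTD difference varied between brain and spine, and on spread borrowed from other genes. Ahsp and Gp1bb were not analysed here.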

Additional observations from a re-analysis of the deposited data

Results flagged for a closer look

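In 4 of the 9 genes the NTD library was above its control in one tissue and below it in the other. With 1 library per group these differences were not tested, and only counting error can be set beside them. Cdh5 had a log2 ratio of NTD to control of -0.21 in brain and 0.09 in spine, a difference of -0.29 (brain minus spine). Its brain ratio was 0.806 times its spine ratio, with a counting interval of 0.721 to 0.901. Tie1 differed by -0.18, with a ratio of ratios of 0.869 (0.749 to 1.01). Flt1 differed by -0.11, with a ratio of ratios of 0.893 (0.750 to 1.06). Cd34 differed by 0.10 in the other direction, with a ratio of ratios of 1.08 (0.953 to 1.22). With the adjustment for GC content and length, Flt1 (0.012 in brain and 0.009 in spine) and Tie1 (0.03 and 0.18) no longer had opposite signs. Cdh5 (-0.12 in brain and 0.19 in spine) and Cd34 (0.09 and -0.10) still did, on the log2 scale.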

How the results depend on the processing

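The count of members past 2-fold was 0 in every comparison under every alternative but 1: at a threshold of 1.5-fold it was 1 (Tek) in control brain against control spine and 1 (Tek) in NTD brain against NTD spine. The count of members called between NTD and control in limma was 1 (Eng), and 0 without the filter, with the spread modelled on mean FPKM and with the adjustment for GC content and length. The last 2 of these were chosen after seeing the data. Between brain and spine it was 5, and 0 without the filter, 1 (Tek) with the spread modelled on mean FPKM, and 6 (with Eng) at a pseudocount of 5 and with libraries rescaled by the median ratio. A count model on the recovered reads, planned as an alternative, is not reported because the deposited values are FPKM. In trials whose values are not kept, such a model did not call Eng between NTD and control, and limma with precision weights on those reads did. A filter at 5 FPKM left 7 of the 9 members. The cause of these moves was not tested. Over all genes, the count past 2-fold was 205 in NTD brain against control brain, and 444 at a pseudocount of 0.1, 38 at 5, 335 without the filter, 77 at a filter of 5 FPKM, 503 from reads and 44 among protein-coding genes. In NTD spine against control spine it was 172, and 380, 29, 302, 53, 409 and 42 under the same settings. In control brain against control spine it was 435, and 712, 139, 139 and 745 at the pseudocounts of 0.1 and 5, at the filter of 5 FPKM and from reads. In NTD brain against NTD spine it was 407, and 726, 101, 135 and 757 under those settings. At 1.5-fold these counts were 593, 567, 1058 and 1073. The 923 genes called between NTD and control became 0 without the filter, 1425 with libraries rescaled by the median ratio, 19 with the spread modelled on mean FPKM and 311 with the GC and length adjustment. The 1716 called between brain and spine became 0 without the filter, 869 at a filter of 5 FPKM and 863 with the spread modelled on mean FPKM. Leaving out a library leaves no residual degree of freedom, so it gives a value with no test: for Tie1 and Cdh5 the NTD ratio was 0.09 and 0.09 (log2) without either brain library, and -0.09 and -0.21 without either spine library. Their brain ratio was -0.46 and -0.49 without either control library, and -0.28 and -0.20 without either NTD library. No paired analysis was possible because the groups share only 1 replicate number, which cannot serve as a block; the fits above block on tissue or condition.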
